A study of Nothobranchius furzeri with 185 samples.

Results

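Eukaryotic translation initiation factors of the turquoise killifish Nothobranchius furzeri, a short-lived annual fish used in ageing research, were described across brain, liver, skin and tail fin. The loci were chosen by name: every locus whose symbol starts with eif1 to eif6, apart from the eif2ak kinases, which gave 61 of the 23564 loci in the table. They carry 53 different symbols, and 15 of the 61 share their symbol with another locus. Such pairs are named here with their locus identifier, and reads from near-identical copies may have been split between them. For 11 loci the mapping behind the symbol is marked SBH_furzeri only, taken here as a one-way best hit, where the others are marked BBH. Among these are eif4ebp1 Nfu_g_1_006328, EIF4G1 Nfu_g_1_020032 and eif3eb, whose symbols are less certain. By role, 16 loci belong to the eIF3 complex, 6 to the cap-binding eIF4E family, 4 to the 4E-BP inhibitors of eIF4E, 5 to the eIF4G scaffolds, 5 to the exchange factor eIF2B, 3 to the eIF4A helicases, 3 to eIF2 and 3 to eIF5A. The symbol rule also took in 5 loci under the older eif2c symbols (EIF2C1, EIF2C2, a pair called EIF2C3, and eif2c4), which encode Argonaute proteins of the microRNA machinery and not initiation factors, so that 56 loci were initiation factors by name. Of the 61 loci, 59 passed the filter on low counts in every comparison. The remaining ones were the eif3i copy Nfu_g_1_016471, with 73 reads in 57 libraries, and the eif3ja copy Nfu_g_1_013354, with 43 reads in 6 libraries.

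Translation of most mRNAs starts when eIF4E binds the 5′ cap and joins the scaffold eIF4G and the helicase eIF4A, while eIF3 holds the small ribosomal subunit to which eIF2 delivers the initiator tRNA with GTP. The 4E-BP proteins, which are targets of the nutrient-sensing kinase mTORC1, keep eIF4E away from eIF4G. eIF5 triggers GTP hydrolysis by eIF2, eIF2B recharges eIF2 with GTP and is blocked when stress kinases phosphorylate eIF2, and eIF5B joins the subunits. Roles stated for single loci are those known from mammals or yeast.

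Tissue came from untreated fish aged 5, 12, 20, 27 or 39 weeks, from which liver and skin were taken (5 fish per tissue and age). In a second experiment brain, liver and skin came from 5 fish in each of 3 groups. Fish of 27 weeks had received 15 pM rotenone, an inhibitor of mitochondrial complex I, in the water for 4 weeks from week 23. Age-matched fish of 27 weeks had received the vehicle DMSO for the same 4 weeks, and fish of 9 weeks had received DMSO for 4 weeks from week 5. Tail fin was clipped from 45 fish at 10 and again at 20 weeks, and the fish were then followed until death. The long-lived group died at 57.3 to 71.9 weeks, the middle group at 45.1 to 50.3 weeks and the short-lived group at 28.7 to 36.4 weeks (15 fish each). Neither strain nor sex is stated in the labels. The 185 libraries held 14.97M to 54.95M counts (median 30.51M, where M is 1e6 reads), of which the 61 loci took 0.481 to 1.131%. A level is given below as RPKM, reads per kilobase of locus scaled to sequencing depth, on library sizes scaled within each fit. A fit is a set of libraries tested together, and the same library has another level in another fit. For EIF2C1, brains of 9 weeks averaged 4.9 RPKM in the fit of all tissues and 8.08 RPKM in the fit of brains. Levels are therefore to be compared only within a fit.

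Some libraries stood apart in their marker genes, and counts without them stand beside the results. Unless stated, the share of all genes called without a library or fish is not given. Such counts of members then cannot be set against all genes. Liver markers summed to 100055 to 267976 CPM (counts scaled to the library total) in all livers of vehicle and rotenone fish, and brain markers to 7784 to 10237 CPM in all brains. In skin, the skin markers summed to 17330 to 52946 CPM, but muscle markers also reached 16532 to 95077 CPM in every skin library. One skin of 12 weeks (fish JM109) held 21761 CPM of liver markers against a median of 236.9 CPM in its group. One liver of 5 weeks (fish JM103) held 81250 CPM of oocyte and yolk markers, against a median of 179.9 CPM in its group. That list includes the vtg2 and vtg3 loci, and the sex of this fish is not stated. Testis markers reached 2222 CPM in 1 rotenone skin (fish MR30), where the group median was 10.8 CPM, and 1121 CPM in 1 vehicle skin (fish MC7), where it was 23.1 CPM. The vehicle brain of fish MC10 differed widely from the other 4 vehicle brains of 27 weeks, and brain results that include it are also given without it.

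At 9 weeks, with library sizes scaled across tissues, most initiation factors were lower in brain than in liver or skin of the same 5 vehicle fish. The lower ones included subunits of eIF3 and eIF2, eIF4A helicases and members of the eIF4E family. Higher in brain than in liver were the Argonautes EIF2C1 and eif2c4, the scaffold eif4g3b, the inhibitor eif4ebp2 and the eif5a copy Nfu_g_1_014150. Of 59 loci tested, 43 were lower and 5 higher in brain than in liver by edgeR's quasi-likelihood test with fish as a block. A call, here and below, is a Benjamini-Hochberg adjusted p under 0.05 over all genes tested by edgeR. Over all genes, 35.6% were lower and 43.6% higher. The median log2 fold change was −1.08 for the 59 loci and 0.22 for all genes. For some loci the direction depends on the scaling across tissues. In the fits of each tissue alone, the same fish averaged 75.4 RPKM of eif2s3 in brain and 67.2 RPKM in liver. There eif4eb averaged 2.27 RPKM in brain and 12.7 RPKM in liver. No test without scaling across tissues was run. In bulk tissue, fewer cells of a type and less RNA per cell cannot be told apart.

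The cap-binding protein eif4eb had the lowest level of any tested initiation factor in brain. It stood at 1.23, 1.46, 1.27, 1.38 and 1.53 RPKM in the 5 brains, against 12.5, 18.5, 21.1, 26.4 and 19.5 RPKM in the 5 livers. The brain values spanned a narrow range and lay below every liver and every skin, where the skins had 4.65, 9.83, 10.7, 8.79 and 9.72 RPKM. The log2 fold change of brain over liver was −3.79 ± 0.18 (SE, adjusted p = 1.51e-09), and that of brain over skin was −2.61. The 4E-BP locus eif4ebp1 Nfu_g_1_006328 differed most, at 2.60, 5.05, 5.31, 3.94 and 3.30 RPKM in brain and 103, 103, 59.2, 154 and 97.9 RPKM in liver, a log2 fold change of −4.62 ± 0.31 (adjusted p = 3.58e-08). Skin lay between them at 18.2, 10.6, 8.06, 12.8 and 10.4 RPKM, and the 3 tissues did not overlap.

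Among eIF3 subunits, 13 of 14 tested loci were lower in brain than in liver and none higher, and 13 were lower and 1 (eif3eb, a copy of subunit e) higher in brain than in skin. The core subunit eif3ba fell most, by 1.98 on the log2 scale against liver and by 1.57 against skin. With the scaling across tissues, the 3 eIF2 subunits eif2s1, eif2s2 and eif2s3 were all lower in brain than in both other tissues. Subunit gamma, eif2s3, which binds the initiator tRNA, stood at 37.2, 56.6, 54.0, 38.6 and 42.7 RPKM in brain, 97.6, 92.7, 97.1, 90.5 and 92.5 RPKM in skin and 87.1, 98.6, 111, 111 and 112 RPKM in liver. Brain lay below both other tissues, whose ranges overlapped.

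The eIF4A helicases split between tissues, since eif4a1b averaged 140 RPKM in brain, 400 RPKM in skin and 427 RPKM in liver, whereas eif4a2 was higher in brain than in skin. Brain held 34.5, 42.4, 40.4, 33.7 and 34.8 RPKM of eif4a2, and skin 19.4, 24.9, 20.8, 23.0 and 21.9 RPKM, with no overlap (log2 fold change 0.76). EIF2C1, the Argonaute, had 5.59, 4.55, 4.05, 4.92 and 5.42 RPKM in brain against 1.65, 2.40, 1.8, 2.22 and 1.95 RPKM in liver, and every brain lay above every liver (log2 fold change 1.30). In brain over skin, 36 loci were lower and 8 higher, where 36.3% and 39.6% of all genes were, with a median of −0.75 against 0.06. In skin over liver, 32 were lower and 5 higher, where 29.3% and 35.1% of all genes were, with a median of −0.39 against 0.08. The highest levels at 9 weeks were those of the start-codon factor eif1b (253, 497 and 557 RPKM on average in brain, skin and liver) and of the main eif5a locus, Nfu_g_1_011421 (221, 608 and 828 RPKM).

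**Figure D1:**
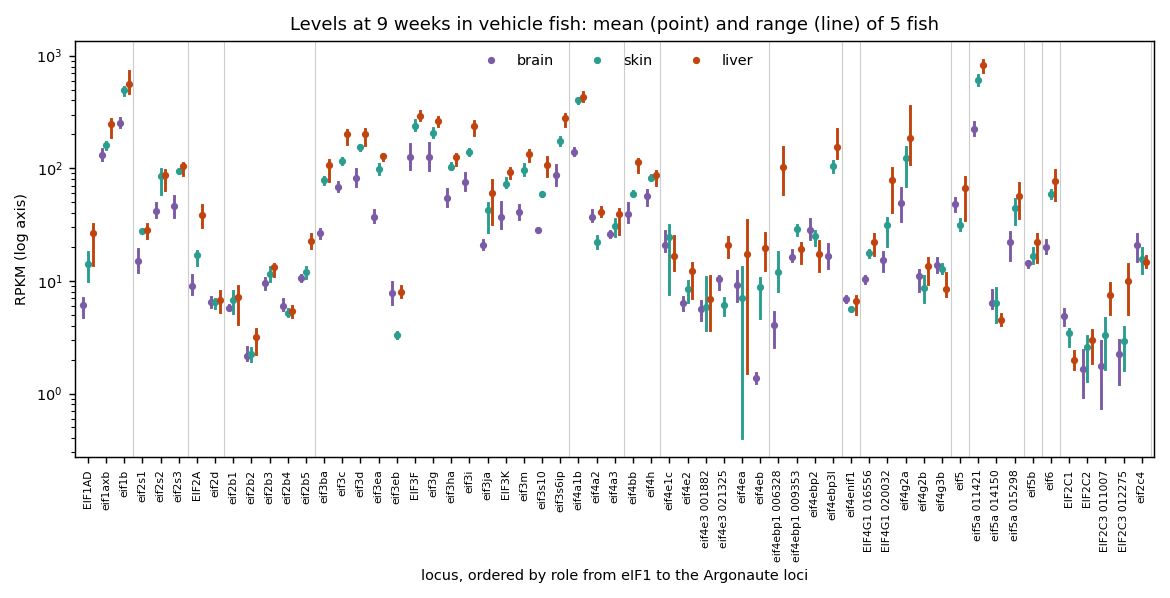
RPKM on a log axis of translation initiation factor loci in brain, skin and liver of the same 5 vehicle fish of 9 weeks, with the mean as a point and the range of the 5 fish as a line. Levels of eif4eb in brain (1.23 to 1.53 RPKM) lie below every skin and liver, and eif4ebp1 Nfu_g_1_006328 separates the 3 tissues.

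In the liver, these loci were called between 12 and 5 weeks about as often as all genes were. At 12 weeks against 5 weeks, 4 loci were higher and 5 lower, where 5.51% of all genes were higher and 8.01% lower (2 to 14 members in all on leaving out single livers). Lower at 12 weeks were the subunit-joining GTPase eif5b and eif5, which triggers GTP hydrolysis by eIF2. So were the alternative initiator tRNA carrier eif2d and the scaffolds eif4g2b and EIF4G1 Nfu_g_1_016556. Higher were eif4ebp1 Nfu_g_1_006328, eif4a2 and the eIF3 subunits EIF3K and eif3ha. The DNA replication list moved in the same comparison, with 19 of 22 tested genes lower at 12 weeks.

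eif5b had 5.24, 5.78, 7.18, 5.31 and 14.1 RPKM at 12 weeks against 19.0, 18.3, 19.2, 17.9 and 20.2 RPKM at 5 weeks. One liver of 12 weeks (fish JM115) lay nearer to the 5-week livers than to its own group, but the groups did not overlap (log2 fold change −1.33 ± 0.30, edgeR adjusted p = 0.0057). eif5 had 12.3, 12.1, 15.2, 18 and 19.3 RPKM at 12 weeks and 42.1, 72.3, 28.9, 32.0 and 41.0 RPKM at 5 weeks, again without overlap (−1.49 ± 0.47, adjusted p = 0.0373). At later ages eif5 spread widely between fish of the same age. Its lowest and highest livers were 12.2 and 58.5 RPKM at 20 weeks, 13.8 and 54.3 RPKM at 27 weeks, and 15.7 and 67.7 RPKM at 39 weeks.

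The repressor eif4ebp1 Nfu_g_1_006328 was the single initiation factor called higher in liver at 39 weeks against 5 weeks, and none was lower, where 5.22% of all genes were higher and 6.77% lower. Its levels were 27.5, 84.9, 69.5, 63.5 and 105 RPKM at 39 weeks and 5.46, 19.6, 31, 37.9 and 14.8 RPKM at 5 weeks. The lowest liver of 39 weeks overlapped the 5-week group (log2 fold change 1.69 ± 0.51, edgeR adjusted p = 0.0334). At 12 weeks it stood at 114, 127, 75.3, 140 and 65.3 RPKM, above every liver of 5 weeks (2.26 ± 0.52, adjusted p = 0.00724). Between 39 and 12 weeks edgeR called no locus among the members and no gene in all (0% of 17618), with 8 members and 3026 genes at an unadjusted p under 0.05, and DESeq2 called 2 members. All 3 liver comparisons share groups with one another. Leaving out the livers of fish JM103 and of fish JM100, which held 6764 CPM of skin markers, brought the 12 against 5 week count to 2 and the 39 against 5 week count to 0.

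Skins of 39 weeks were compared with skins of 5 weeks. At 39 weeks 9 of 14 eIF3 subunits, 2 of 3 eIF4A helicases and 2 of 4 4E-BP loci were higher than at 5 weeks, whereas 4 of 5 Argonaute loci and 3 of 5 eIF4G scaffolds were lower. Altogether 22 loci were higher and 10 lower, where 25.6% of all genes were higher and 28.9% lower. Without the Argonautes, 22 of 54 were higher and 6 lower. The median log2 fold change was 0.30 over the 59 loci and −0.03 over all genes.

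Of 14 eIF3 subunits tested, 9 were higher at 39 weeks and none lower, with a median log2 fold change of 0.74. The subunits that rose most were eif3g and EIF3K, of which eif3g binds mRNA and takes part in scanning, and EIF3F and eif3ha, the MPN-domain subunits of the core. EIF3K had 301, 246, 241, 234 and 155 RPKM at 39 weeks against 65.2, 54.8, 73.6, 70.1 and 89.9 RPKM at 5 weeks. Every skin of 39 weeks lay above every skin of 5 weeks, at 1.74 ± 0.18 on the log2 scale (edgeR adjusted p = 8.28e-08). eif3g had 645, 509, 609, 498 and 442 RPKM against 144, 158, 176, 163 and 190 RPKM, again with no overlap (1.70 ± 0.16, adjusted p = 3.47e-08).

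Both subunits passed through middle levels in between. EIF3K lay at 92.6 to 126 RPKM at 12 weeks, 93.2 to 164 RPKM at 20 weeks and 89.8 to 133 RPKM at 27 weeks, and eif3g at 196 to 286, 232 to 427 and 204 to 307 RPKM. The skins of 12, 20 and 27 weeks overlapped one another. For EIF3K they lay between the youngest and oldest groups apart from 1 skin of 27 weeks (fish JM83, 89.8 RPKM), just under the highest skin of 5 weeks, and 1 of 20 weeks (fish JM88, 164 RPKM), above the lowest of 39 weeks. EIF3F averaged 535 RPKM at 39 weeks and 180 RPKM at 5 weeks (log2 fold change 1.57), and eif3ha averaged 261 and 95.2 RPKM (1.45). Smaller rises were those of eif3m (1.08), eif3s6ip or subunit l (1.03), eif3ea (0.93), eif3d (0.54) and eif3i (0.41).

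Around the start codon and the cap, other factors rose with eIF3. eif1b, which with eIF1A opens the ribosome for scanning, had 1729, 553, 1206, 554 and 584 RPKM at 39 weeks and 312, 318, 330, 242 and 276 RPKM at 5 weeks. The oldest skins fell into 2 high and 3 lower values, all above the youngest (log2 fold change 1.65 ± 0.27). Among helicases eif4a2 (1.02) and eif4a1b (0.79) were higher, and among eIF2 subunits eif2s3 was (1.06). The cap-binding family was divided, with eif4e3 Nfu_g_1_021325 higher (0.58) and eif4e2, a competitor that binds the cap without joining eIF4G, lower (−1.15). eIF2B was divided too, with eif2b2 (1.00) and eif2b5 (0.40) higher and eif2b3 (−1.03) lower.

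Of the 4 4E-BP loci, 2 were higher at 39 weeks. eif4ebp1 Nfu_g_1_006328 had 58.2, 61.6, 146, 52.2 and 66.0 RPKM at 39 weeks and 5.16, 6.07, 8.24, 13.5 and 15.7 RPKM at 5 weeks. The skin of fish JM15 was far above the other 4, and all 5 lay above the youngest group (2.97 ± 0.47, edgeR adjusted p = 1.6e-05). eif4ebp3l had 496, 329, 480, 339 and 359 RPKM against 71.1, 45.9, 114, 98.7 and 70.2 RPKM, without overlap (2.32 ± 0.35, adjusted p = 8.95e-06). The third inhibitor went another way: eif4ebp2 stood at 10.4, 12.3, 20.0, 4.17 and 21.4 RPKM at 39 weeks against 36.1, 25.1, 33.4, 29.6 and 40.3 RPKM at 12 weeks, and the groups did not overlap (−1.27 ± 0.31, adjusted p = 0.0019). At 5 weeks it had stood at 11.2 to 19.5 RPKM, below all skins of 12 weeks (1.06 ± 0.31 at 12 against 5 weeks, adjusted p = 0.0133).

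eIF5A, which relieves ribosomes stalled at proline-rich stretches, changed in opposite directions between loci that carry its symbol. The symbols of copies Nfu_g_1_015298 and Nfu_g_1_014150 rest on a mapping marked SBH_furzeri only, and that of the main locus on BBH. The copy Nfu_g_1_015298 had 4.16, 4.48, 6.84, 1.09 and 5.64 RPKM at 39 weeks and 72.0, 96.8, 33.5, 38.4 and 38.0 RPKM at 5 weeks, with no overlap (−3.66 ± 0.50, edgeR adjusted p = 2.67e-06). The eif5a copy Nfu_g_1_014150 had 13.7, 11.6, 16.8, 13.6 and 16.9 RPKM against 2.47, 3.91, 3.57, 3.68 and 4.93 RPKM, also without overlap but in the other direction (1.96 ± 0.27, adjusted p = 3.35e-06). The main locus eif5a Nfu_g_1_011421, with most of the reads, averaged 1160 and 698 RPKM (0.74 ± 0.13, adjusted p = 7.71e-05).

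The scaffold eif4g2b, of the DAP5 type that lacks the eIF4E-binding site, had 1.24, 0.857, 2.49, 0.415 and 1.77 RPKM at 39 weeks against 13.6, 14.5, 7.90, 9.19 and 9.31 RPKM at 5 weeks. All 5 old skins lay below all young ones (−3.01 ± 0.40, edgeR adjusted p = 1.71e-06). EIF4G1 Nfu_g_1_016556 and eif4g3b were lower by less (both −0.53), and no eIF4G locus was higher. Of the 5 Argonaute loci 4 were lower at 39 weeks: EIF2C3 Nfu_g_1_011007 (−3.29 ± 0.50), EIF2C2 (−2.89), EIF2C3 Nfu_g_1_012275 (−2.34) and eif2c4 (−1.79). Levels of EIF2C3 Nfu_g_1_011007 were 0.488, 0.191, 0.320, 0.0914 and 0.286 RPKM at 39 weeks and 2.10, 4.03, 1.45, 3.31 and 2.26 RPKM at 5 weeks, without overlap. Over all 185 libraries the lowest count was 7 reads for EIF2C3 Nfu_g_1_011007 and 3 reads for EIF2C2. The lowest levels of both loci, here and below, therefore rest on few reads. As an alternative, each gene's change was adjusted for its deviation in the vehicle brain of fish MC10, a smooth trend over all genes. With this trend removed, EIF2C3 Nfu_g_1_011007 (−0.69, adjusted p = 0.227), EIF2C2 (−0.66, adjusted p = 0.138) and EIF2C3 Nfu_g_1_012275 (−1.09, adjusted p = 0.14) were no longer called and eif2c4 stood at 0.05. EIF3K (1.24), eif3g (1.30), eif5a Nfu_g_1_015298 (−2.40), eif4g2b (−2.32) and eif4ebp1 Nfu_g_1_006328 (3.12) were still called under it. Some Argonaute loci lie far out on that deviation itself, at −4.86 for EIF2C3 Nfu_g_1_011007, −4.14 for EIF2C2 and −3.22 for eif2c4 on the log2 scale. EIF2C3 Nfu_g_1_012275 lies at −1.75 and EIF2C1 at −0.38. Loci of other roles also lie out, such as eif4e3 Nfu_g_1_001882 (−2.25), eif5a Nfu_g_1_015298 (−1.95), eif4ebp2 (−1.51) and eif4eb (1.36). For loci far out on it, this alternative cannot tell a change of their own from the shared trend. Here and below, shares of all genes belong to the main fit and none is given with the trend removed.

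**Figure D2:**
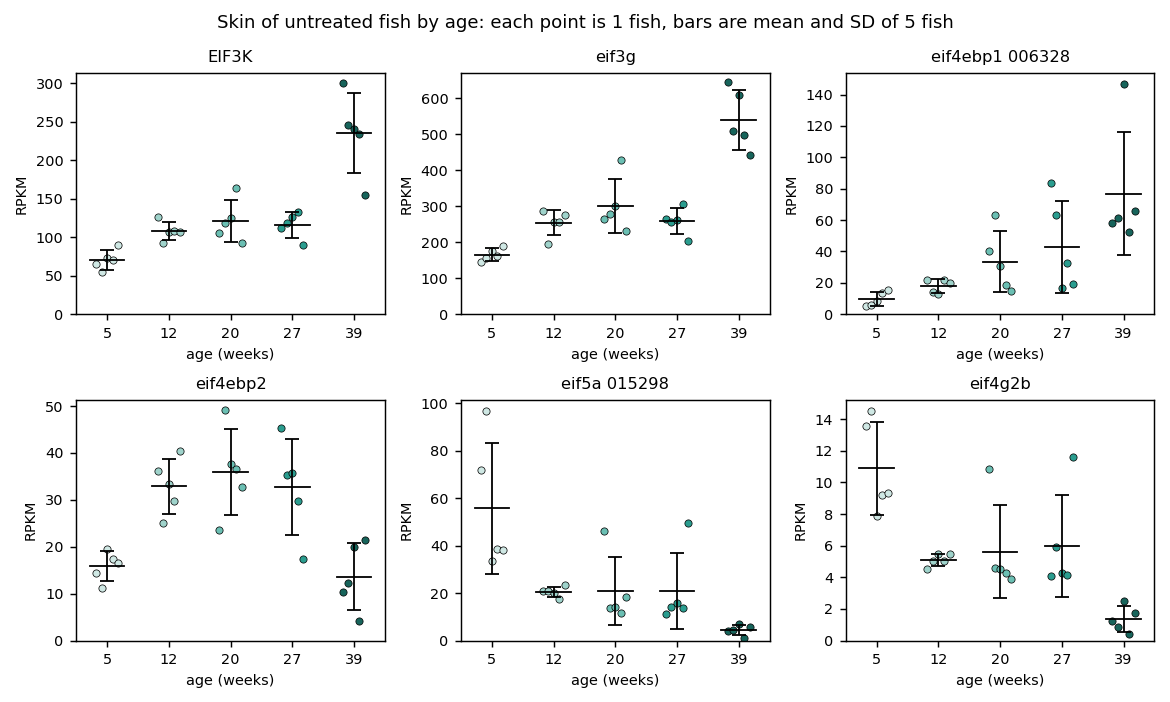
RPKM on linear axes of 6 loci in skin of untreated fish of 5, 12, 20, 27 and 39 weeks, with 1 point per fish and bars for the mean and SD of 5 fish. EIF3K and eif3g run to 155 to 301 and 442 to 645 RPKM at 39 weeks, whereas eif5a Nfu_g_1_015298 and eif4g2b run down to 1.09 to 6.84 and 0.415 to 2.49 RPKM.

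Skin of 12 weeks differed from skin of 5 weeks in 7 higher and 14 lower loci, where 14.6% of all genes were higher and 16.6% lower (10 to 23 members in all on leaving out single skins). Without the skin of fish JM109, 7 were higher and 12 lower. With the trend shared with fish MC10 removed, 14 were higher and 13 lower. The median was −0.29 for the members and 0.01 for all genes. Subunits EIF3F (0.80), eif3g (0.62) and EIF3K (0.61) were already higher, and eif2c4 (0.94) was too. Lower at 12 weeks were eif4eb (−1.85 ± 0.59, edgeR adjusted p = 0.0215), eif5a Nfu_g_1_015298 (−1.44), the loosely bound eIF3 subunit eif3ja (−1.22), the eIF2 beta subunit eif2s2 (−1.15), eif4g2b (−1.10), eif5 (−0.97) and eif4a3, a helicase of the exon junction complex (−0.91).

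At 39 weeks against 12 weeks 32 loci were higher and 8 lower in skin, where 24.3% of all genes were higher and 25.1% lower, with medians of 0.65 and 0.06. The count was 11, with 8 higher and 3 lower, once the trend shared with fish MC10 was removed. The shares of all genes are those of the main fit, so the smaller count cannot be set against all genes. Higher at 39 weeks were eif4ebp1 Nfu_g_1_006328 (2.10 ± 0.46, edgeR adjusted p = 0.000617), eif4eb (1.70), eif4ebp3l (1.47), eif4a3 (1.46), eif6, which keeps the large subunit from joining early (1.42), and eif5a Nfu_g_1_014150 (1.34). Lower were EIF2C3 Nfu_g_1_011007 (−2.79), eif2c4 (−2.73), EIF2C2 (−2.45), eif5a Nfu_g_1_015298 (−2.22), eif4g2b (−1.92) and eif4ebp2 (−1.27). With the MC10 trend removed, EIF2C3 Nfu_g_1_011007 stood at 0.05 and EIF2C2 at 0.01, with the limit given above for these loci. Beside this comparison, 15 of 16 tested liver markers were lower at 39 weeks, where the 12-week group included the skin of fish JM109. Without that skin 38 loci were called, and each locus named here for 39 against 12 weeks was still called. The share of all genes called without it is not given.

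All 3 skin comparisons share groups with one another. Loci called in opposite directions against 5 and 39 weeks, such as eif4eb, eif4a3 and eif4ebp2, rest on the same 5 skins of 12 weeks. The cap-binding eif4eb was lower at 12 than at 5 weeks and higher at 39 than at 12 weeks, with a wide spread at 39 weeks. It had 14.8, 16.6, 7.32, 7.22 and 6.94 RPKM at 5 weeks, 2.42, 3.68, 3.34, 2.09 and 3.11 RPKM at 12 weeks, and 24.0, 3.08, 14.2, 4.01 and 2.39 RPKM at 39 weeks. The old skins of fish JM1 and JM15 were high and the other 3 lay within or near the 12-week range. Single fish also stood out at 20 weeks (JM79, 14.6 RPKM, the other 4 at 2.95 to 4.71) and at 27 weeks (JM83, 12.3 RPKM, the other 4 at 2.31 to 3.62).

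Other lists of translation genes in skin at 39 against 5 weeks stand beside the same shares of all genes, 25.6% higher and 28.9% lower. Of 6 eIF2 kinase loci, 5 were lower and none higher, among them eif2ak4, the amino acid sensor GCN2 (−1.70), and eif2ak2 Nfu_g_1_016147 (−1.97). Of 16 elongation and termination factors, 8 were higher, such as eef1b2 (1.61) and eef1da (1.71) of the eEF1 complex, and gspt1l Nfu_g_1_022949 was lower (−0.82). Partners of the cap and of mRNA were 8 higher and 7 lower of 25, with the poly(A)-binding protein pabpc1a (1.13) and its partner paip1 Nfu_g_1_007438 (1.00) higher and cyfip1, an eIF4E-binding repressor, lower (−1.12). The mTORC1 list was 11 higher and 6 lower of 26, led by lamtor3 (1.70) and larp1 Nfu_g_1_005437 (−2.39). DNA replication genes were 1 higher and 16 lower of 22.

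Macrophage markers also differed in that comparison, with 9 of 12 higher and 1 lower at 39 weeks. They summed to 683 to 1161 CPM at 39 weeks and 407 to 677 CPM at 5 weeks, and their part in the initiation factor result was not tested. Brain markers, some of which mark nerve, were lower for 11 and higher for 1 of 23 in skin, summing to 30.8 to 55.7 CPM at 39 weeks and 82.8 to 99 CPM at 5 weeks.

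Among vehicle fish, livers of 27 weeks were compared with livers of 9 weeks. Of the loci, 11 were lower and none higher, where 7.68% of all genes were lower and 4.69% higher, with medians of −0.21 and 0.05. Leaving out single livers gave 3 to 16 called members. eif5 had 20.9, 13.5, 18, 12.1 and 16.8 RPKM at 27 weeks against 22.7, 52.1, 52.4, 50.8 and 36.5 RPKM at 9 weeks. Every liver of 27 weeks lay below every liver of 9 weeks, although 1 of each came close (−1.40 ± 0.25, edgeR adjusted p = 0.00887). Of the eIF4G loci 3 were lower, EIF4G1 Nfu_g_1_020032 (−1.30 ± 0.27, adjusted p = 0.0115), eif4g2a (−0.97) and eif4g2b (−0.80), and so were the cap-binding proteins eif4e1c (−2.45 ± 0.62, adjusted p = 0.0229) and eif4eb (−0.86). The Argonautes EIF2C3 Nfu_g_1_012275 (−1.75) and EIF2C1 (−0.69), and EIF1AD (−0.97), eif5a Nfu_g_1_015298 (−0.90) and eif3ja (−0.80) completed the list.

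In skin of vehicle fish 2 loci were higher and 5 lower at 27 weeks, where 3.71% and 6.76% of all genes were (2 to 10 members in all on leaving out single skins). The 4E-BP loci were divided: eif4ebp3l had 108, 254, 243, 574 and 285 RPKM at 27 weeks against 131, 117, 102, 119 and 118 RPKM at 9 weeks, with 1 skin of 27 weeks (fish MC10) inside the younger range and 4 above it (1.32 ± 0.33, edgeR adjusted p = 0.0235). eif4ebp1 Nfu_g_1_006328 had 13.8, 21.7, 33.7, 67.4 and 34.0 RPKM against 20.7, 11.8, 8.91, 14.2 and 11.4 RPKM, and again fish MC10 overlapped (1.35 ± 0.37, adjusted p = 0.0326). eif4ebp1 Nfu_g_1_009353 went the other way (−0.69, adjusted p = 0.00994), at 22.0, 17.8, 17.3, 22.4 and 19.4 RPKM against 28.8, 32.1, 34.6, 30.3 and 33.3 RPKM with no overlap. EIF4G1 Nfu_g_1_020032 (−0.83), eif4eb (−0.88), eif5a Nfu_g_1_015298 (−0.80) and eif2s2 (−0.51) were lower as well. Without the skin of fish MC7, 3 loci were higher and 5 lower, and eif5a Nfu_g_1_015298 was no longer called (−0.79, edgeR adjusted p = 0.0547).

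Brain of 27 weeks differed from brain of 9 weeks in a single member, where 0.889% of all genes were lower and 1.20% higher. EIF2C1 had 4.88, 5.91, 6.17, 5.16 and 5.43 RPKM at 27 weeks and 9.23, 7.43, 6.62, 8.13 and 9.00 RPKM at 9 weeks, without overlap (−0.55 ± 0.10, edgeR adjusted p = 0.0141). Without fish MC10, 9 of 59 members were called, 3 higher and 6 lower, a share similar to the 16.5% of all genes called in either direction. The higher ones were then eif4ebp1 Nfu_g_1_006328 (0.92), eif4ebp3l (0.66) and eif4e3 Nfu_g_1_001882 (0.47), and the lower ones were eif4e1c (−0.55), eif4eb (−0.53), EIF2C1 (−0.51), eif2b2 (−0.35), eif4ebp1 Nfu_g_1_009353 (−0.35) and eif3ba (−0.21).

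Rotenone went with more higher than lower loci in liver. Against vehicle livers of 27 weeks 22 loci were higher and 1 lower, where 13.9% of all genes were higher and 12.0% lower, and with the MC10 trend removed 17 were higher and 3 lower. The median log2 fold change was 0.39 over the members and −0.08 over all genes. Among those higher were 4 of 5 eIF4G scaffolds, 3 of 6 eIF4E loci, 3 of 5 eIF2B subunits, 2 of 3 eIF2 subunits, 2 of 14 eIF3 subunits, eif5 and eif6. The vehicle fish of 27 weeks are shared by the rotenone and the 27 against 9 week comparisons. For EIF2C2 and EIF2C3 Nfu_g_1_011007 the vehicle brain of fish MC10 stood at the level of the rotenone brains. Whether its trend holds part of a rotenone change was not tested. Some loci stood under rotenone near their mean in vehicle fish of 9 weeks. Means at 9 weeks, at 27 weeks and under rotenone were 42.9, 16.2 and 50.6 RPKM for eif5. For EIF4G1 Nfu_g_1_020032 they were 51, 20.7 and 47.5 RPKM. Others lay above their 9-week mean, such as eif2s2, at 56.4, 51.9 and 90.9 RPKM.

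eif5, with the second largest rise on the log2 scale, had 32.0, 64.3, 47.0, 51.6 and 58.3 RPKM in rotenone livers and 20.9, 13.5, 18, 12.1 and 16.8 RPKM in vehicle livers. All rotenone livers lay above all vehicle livers (1.64 ± 0.25, edgeR adjusted p = 0.00134). In untreated fish, whose levels were scaled in a separate fit, livers of 27 weeks alone spanned 13.8 to 54.3 RPKM of eif5. The scaffold EIF4G1 Nfu_g_1_016556 had 19.7, 22.8, 20.4, 19.2 and 21.1 RPKM against 11.8, 12.1, 11.2, 10.9 and 10.9 RPKM, in 2 tight and separate groups (0.86 ± 0.14, adjusted p = 0.00158). The second copy, EIF4G1 Nfu_g_1_020032, had 26.5, 46.7, 53.1, 58.8 and 52.3 RPKM against 26.1, 18, 16, 16.5 and 26.7 RPKM, and the rotenone liver of fish MR26 overlapped the vehicle group (1.20 ± 0.27, adjusted p = 0.00595).

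The cap-binding eif4eb had 16.8, 16.2, 13.6, 14 and 15.6 RPKM in rotenone livers and 7.56, 6.07, 6.33, 4.81 and 10.0 RPKM in vehicle livers, with no overlap (1.13 ± 0.20, edgeR adjusted p = 0.00237). Its inhibitor eif4ebp2 was the 1 locus that fell, at 4.63, 4.42, 6.01, 5.48 and 4.98 RPKM against 11.4, 9.97, 13.9, 12.4 and 18.3 RPKM. Rotenone livers lay below every vehicle liver (−1.37 ± 0.20, adjusted p = 0.0012). The other 4E-BP locus called was eif4ebp1 Nfu_g_1_009353, which was higher (0.68).

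eif6 had 126, 74.9, 72.3, 72.2 and 81.2 RPKM in rotenone livers against 44.0, 41.7, 53.1, 39.4 and 38.0 RPKM in vehicle livers, and the liver of fish MR26 was the highest (0.98). The eIF2 subunits eif2s2 (0.81) and eif2s1 (0.42) and the eIF2B subunits eif2b1 (0.90), eif2b4 (0.65) and eif2b2 (0.54) were higher. So were eif3ja (1.11), EIF1AD (1.03), eif2d (0.94), eif4a3 (0.81), eif4g3b (0.79), eif4g2b (0.78), eif4e2 (0.73), eif5a Nfu_g_1_015298 (0.86), EIF2C3 Nfu_g_1_012275 (1.46) and eif3eb (0.58). eif4e1c was called (1.76 ± 0.61, edgeR adjusted p = 0.0456), at 0.978, 9.91, 7.97, 8.74 and 5.59 RPKM in rotenone livers and 1.16, 0.461, 1.95, 0.803 and 5.43 RPKM in vehicle livers. Its groups overlapped through the rotenone fish MR26, the vehicle fish MC9 lay just under the rest, and the call was lost on leaving out any of 8 single livers, such as that of fish MR27 (adjusted p = 0.105).

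Other lists of translation genes in rotenone livers stand beside shares of 13.9% higher and 12.0% lower among all genes. Cap partners were 5 higher and 1 lower of 24, with the recycling factor abce1 (1.15) and the nuclear cap-binding ncbp2 (0.84) higher and the eIF4E kinase mknk2b lower (−2.27). Elongation and termination factors were 5 higher and 1 lower of 16, the termination factors gspt1l Nfu_g_1_018506 (1.46) and etf1 (1.43) being higher and eef2k, the kinase that inhibits eEF2, lower (−1.07). Of 17 genes of the integrated stress response, 1 was higher (psat1, 2.41) and 4 lower, such as slc3a2a (−2.52) and trib3 (−1.29). The mTORC1 list was 2 higher and 3 lower of 26, with ddit4 Nfu_g_1_023065, an mTORC1 inhibitor, at −2.35, and of 6 eIF2 kinase loci eif2ak3 was higher (0.81) and eif2ak4 lower (−0.70). Macrophage markers summed to 120 to 240 CPM in rotenone livers and 248 to 1203 CPM in vehicle livers, with 2 of 12 lower and none higher, and their part in the result was not tested.

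In skin, rotenone likewise went with more higher than lower loci. There were 14 higher and 2 lower, where 7.08% of all genes were higher and 5.19% lower, with medians of 0.23 and 0.07. With the MC10 trend removed 11 were higher and none lower, and leaving out single skins gave 8 to 19 called members. EIF4G1 Nfu_g_1_020032 had 31.8, 40.1, 44.0, 40.6 and 34.2 RPKM in rotenone skins against 23.4, 15.2, 20.4, 21.8 and 17.3 RPKM in vehicle skins, without overlap (0.96 ± 0.17, edgeR adjusted p = 0.00352). eif2s2 had 114, 115, 121, 115 and 96.8 RPKM against 69.7, 56.2, 69.0, 73.4 and 63.5 RPKM (0.76 ± 0.13, adjusted p = 0.00354), and eif5 had 39.1, 39.9, 41.1, 46.8 and 36.2 RPKM against 28, 28.5, 26.4, 28.2 and 31 RPKM (0.51 ± 0.10, adjusted p = 0.00565). Neither pair of groups overlapped.

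The rotenone skins came from the same fish as the livers, and eif4eb was higher in them too, at 11.6, 11.3, 10.7, 12.1 and 13.6 RPKM in rotenone skins against 5.69, 2.99, 7.73, 6.15 and 3.73 RPKM in vehicle skins (1.17 ± 0.25, edgeR adjusted p = 0.00853). The groups did not overlap. The inhibitor eif4ebp2 fell in skin also, at 28.1, 28.5, 27.1, 26.1 and 18.7 RPKM against 35.6, 32.3, 31.8, 50.8 and 44.4 RPKM, with all rotenone skins below all vehicle skins (−0.60 ± 0.16, adjusted p = 0.024, and −0.49 without MR30, adjusted p = 0.0371). The second locus that fell was EIF2C2 (−0.90, adjusted p = 0.0302).

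Further rises in skin were those of EIF2C3 Nfu_g_1_012275 (1.18), eif3ja (0.68), EIF1AD (0.66), eif2d (0.60), eif5b (0.55), eif4ebp1 Nfu_g_1_009353 (0.54) and eif4a3 (0.53). Another 3 calls involved libraries that stood apart. eif3eb had 6.29, 5.30, 5.87, 6.20 and 13.5 RPKM in rotenone skins against 3.15, 2.15, 6.03, 3.13 and 2.39 RPKM in vehicle skins, where the high value of each group came from the fish with testis markers, MR30 and MC7, and MC7 overlapped the rotenone group (1.14 ± 0.29, edgeR adjusted p = 0.0211). Without MC7 the eif3eb change was 1.46 (adjusted p = 0.00353) and without MR30 it was 0.83 (adjusted p = 0.0316).

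eif4e1c had 18.9, 30.8, 25.8, 29.8 and 54.0 RPKM in rotenone skins against 11, 4.10, 25.5, 5.96 and 5.11 RPKM in vehicle skins, with the same 2 fish highest and MC7 inside the rotenone range (1.62 ± 0.50, edgeR adjusted p = 0.0464). It was 2.29 (adjusted p = 0.00474) without MC7 and 1.36 without MR30, where it was no longer called (adjusted p = 0.0782). eif4g2b (0.80, adjusted p = 0.0481) was likewise not called without MR30 (0.58, adjusted p = 0.0828). In all, 18 loci were called without MC7 and 19 without MR30, with the shares of all genes in these fits not given. Beside shares of 7.08% higher and 5.19% lower among all genes, in skin the eIF2 kinases eif2ak1 (1.02) and eif2ak3 (0.50) were higher, elongation and termination factors were 3 higher and none lower of 16, cap partners 4 higher and 2 lower of 25, the mTORC1 list 2 higher and none lower of 26, and integrated stress response genes 1 higher and 5 lower of 16, among them atf3 (−1.41) and ddit3 (−0.89).

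In brain, calls rose on leaving out fish MC10, from 4 to 21 of 59 members and from 1750 of 20132 to 6584 of 20249 genes in all. With all 10 libraries 2 loci were higher and 2 lower, where 3.26% of all genes were higher and 5.43% lower. eif4e1c had 38.0, 44.3, 45.4, 43.7 and 45.7 RPKM in rotenone brains against 37.7, 25.9, 23.1, 21.1 and 23.4 RPKM in vehicle brains, of which MC10 was the highest and came just under the lowest rotenone brain (0.73 ± 0.16, edgeR adjusted p = 0.0126). eif4enif1, the eIF4E transporter, had 12.0, 12.4, 11.3, 12.7 and 13.1 RPKM against 10.2, 10.5, 10.3, 10.3 and 10.1 RPKM, with no overlap and a tight vehicle group (0.26 ± 0.06, adjusted p = 0.02).

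The Argonaute EIF2C2 had 0.233, 0.262, 0.542, 0.206 and 0.183 RPKM in rotenone brains, and 0.196, 4.13, 3.53, 3.33 and 3.36 RPKM in vehicle brains, the first of which was MC10 (−3.34 ± 0.59, edgeR adjusted p = 0.00589). EIF2C3 Nfu_g_1_011007 had 0.385, 0.399, 0.249, 0.468 and 0.160 RPKM against 0.127, 4.77, 3.84, 4.32 and 3.78 RPKM, again with MC10 at the level of the rotenone brains (−3.34 ± 0.67, adjusted p = 0.00936). Relative to the other 4 vehicle brains, MC10 was lower by 4.86 for EIF2C3 Nfu_g_1_011007, by 4.14 for EIF2C2 and by 3.22 for eif2c4 on the log2 scale, while the median was 0.272 over the members and −0.092 over all genes. For eif5 MC10 had 114 RPKM, above the other vehicle brains (72.4, 74.2, 77.2 and 70.9 RPKM) and above the rotenone brains (90.2, 104, 96.4, 99.9 and 96.1 RPKM).

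Without MC10, 21 of 59 members were called in rotenone brains, a share similar to the 32.5% of all genes called in either direction. Of these members 16 were higher and 5 lower, and the split of all genes by direction is not given. The medians of members and of all genes were 0.12 and −0.00. Higher were eif4eb (0.96), eif4e1c (0.88), eif3eb (0.73), EIF2C3 Nfu_g_1_012275 (0.72), eif2b2 (0.50), eif3ja (0.40), eif5 (0.39), eif4a3 (0.36), eif4h (0.35), eif3ba (0.33), eif2s2 (0.32), eif4ebp1 Nfu_g_1_009353 (0.30), eif1axb (0.27), eif6 (0.27), eif3d (0.27) and eif4enif1 (0.25). Lower were EIF2C3 Nfu_g_1_011007 (−3.67), EIF2C2 (−3.64), eif2c4 (−0.66), eif4e3 Nfu_g_1_001882 (−0.46) and eif4ebp2 (−0.31). In that set eif4eb had 2.54, 2.98, 3.24, 2.72 and 3.79 RPKM in rotenone brains against 1.71, 1.43, 1.44 and 1.66 RPKM in the 4 vehicle brains, with no overlap, while MC10 had 4.54 RPKM.

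**Figure D3:**
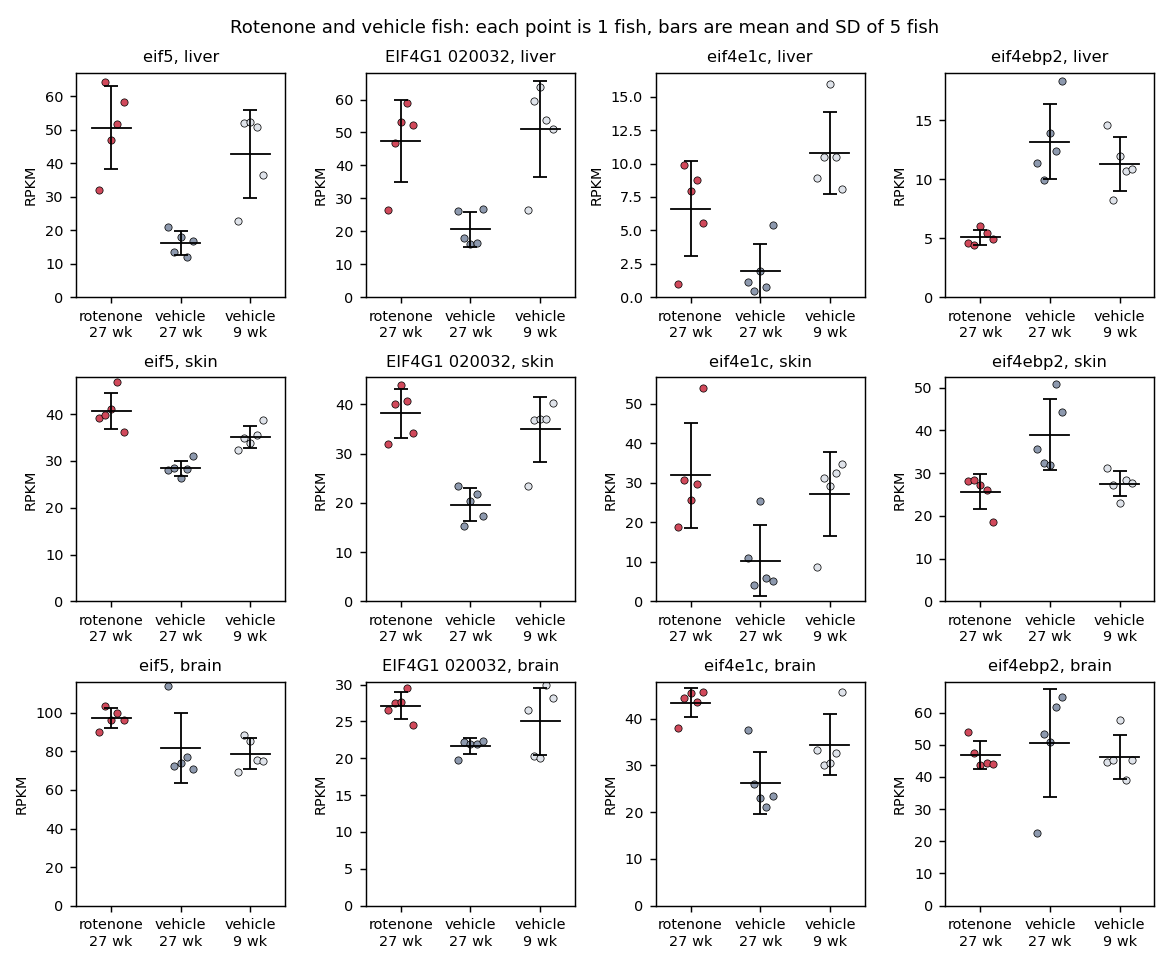
RPKM on linear axes of eif5, EIF4G1 Nfu_g_1_020032, eif4e1c and eif4ebp2 in liver, skin and brain of rotenone fish of 27 weeks, vehicle fish of 27 weeks and vehicle fish of 9 weeks, with 1 point per fish and bars for the mean and SD of 5 fish. In liver eif5 lies at 32.0 to 64.3 RPKM in rotenone fish and 12.1 to 20.9 RPKM in vehicle fish of 27 weeks, and in brain the vehicle fish MC10 sits apart at 114 RPKM of eif5.

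The rotenone response was then compared between tissues of the same fish, by the difference of the log2 changes with fish as a block. In liver minus brain 6 members differed, 5 with a positive and 1 with a negative difference, where 6.10% of all genes differed. They were eif5 (1.37 ± 0.23, edgeR adjusted p = 0.00282), eif4ebp2 (−1.29 ± 0.27, adjusted p = 0.00846), eif2d (1.02), EIF1AD (0.91), EIF4G1 Nfu_g_1_020032 (0.87) and EIF4G1 Nfu_g_1_016556 (0.67). In liver minus skin eif5 alone differed (1.18 ± 0.23, adjusted p = 0.0222), where 0.765% of all genes did. In skin minus brain edgeR called no member, where 0.0326% of all genes were called, with 8 members and 1738 genes at an unadjusted p under 0.05, and no other tool was run. Without fish MC10 all 6 liver minus brain differences were still called, at 1.34 for eif5, −1.09 for eif4ebp2, 0.94 for eif2d, 1.00 for EIF1AD, 0.99 for EIF4G1 Nfu_g_1_020032 and 0.74 for EIF4G1 Nfu_g_1_016556, and eif5 differed between liver and skin by 1.28. In skin minus brain EIF2C3 Nfu_g_1_011007 was then called (3.28, adjusted p = 0.0401). The liver minus brain count ranged from 2 to 7 on leaving out single fish, and the eif5 difference between liver and skin was lost on leaving out any of 6 fish.

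In tail fin, 5 of the 59 tested loci were higher and 2 lower at 20 weeks than at 10 weeks. Among all genes 11.3% were higher and 12.7% lower, in a test with each of the 45 fish as its own pair. Without the Argonautes, 5 of 54 loci were higher and 1 lower. Of the 5 higher loci, 4 were eIF3 subunits, with changes of at most 0.22 on the log2 scale. EIF3K had a lowest, median and highest level of 74.0, 101 and 207 RPKM at 20 weeks, against 62.1, 89.3 and 156 RPKM at 10 weeks, so that the ranges overlapped almost wholly (0.22 ± 0.05, edgeR adjusted p = 0.000954). eif3ha (0.19 ± 0.04, adjusted p = 9.6e-05), eif3g (0.21, adjusted p = 0.00226), EIF3F (0.14, adjusted p = 0.0353) and the helicase eif4a2 (0.20, adjusted p = 0.00168) were the others.

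Lower in fin at 20 weeks were eif4h, a cofactor of eIF4A, and EIF2C3 Nfu_g_1_011007. eif4h had 72.0, 91.4 and 116 RPKM (lowest, median and highest) at 20 weeks against 78.3, 101 and 136 RPKM at 10 weeks, with wide overlap (−0.13 ± 0.03, edgeR adjusted p = 0.000643). EIF2C3 Nfu_g_1_011007 had 0.158, 0.366 and 0.973 RPKM against 0.129, 0.582 and 2.01 RPKM (−0.51 ± 0.16, adjusted p = 0.0156). The titles of the fin libraries name 2 batches, of 30 fish and of 15 fish, without saying what a batch was. Within batch 1 and batch 2 the changes were 0.15 and 0.32 for EIF3K, 0.14 and 0.25 for eif3ha, 0.14 and 0.33 for eif3g, 0.08 and 0.21 for EIF3F, 0.20 and 0.15 for eif4a2, −0.07 and −0.28 for eif4h, and −0.50 and −0.56 for EIF2C3 Nfu_g_1_011007. All 7 kept their sign in both batches, while EIF3F (adjusted p = 0.276 and 0.169) and EIF2C3 Nfu_g_1_011007 (adjusted p = 0.0788 and 0.157) were called in neither alone. Elsewhere in the fin, beside the shares of 11.3% and 12.7% of all genes, the elongation factors were 6 higher and none lower of 16, with eef1a1b Nfu_g_1_014549 (0.81) and eef2b Nfu_g_1_020392 (0.65) called, while a second locus of each, eef1a1b Nfu_g_1_002821 (0.36, adjusted p = 0.128) and eef2b Nfu_g_1_016049 (−0.05, adjusted p = 0.231), was not. The 3 eif2ak2 loci were higher (0.25 to 0.31), and integrated stress response genes were 5 lower of 17, with the serine synthesis enzyme phgdh at −1.17. Other genes differed in the same edgeR test. DNA replication genes were 9 lower and none higher of 22, with ccnb1 (−1.20), cdk1 (−1.04) and MKI67 (−0.95). Skin markers were 6 higher and 2 lower of 21, from pkp1 Nfu_g_1_021132 (0.45) and pkp1 Nfu_g_1_010472 (0.40) to krt18 Nfu_g_1_001524 (−0.26). The part of these genes in the fin result was not tested.

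Fins of fish that later lived long were not told apart from those of short-lived fish by these loci. In long-lived against short-lived fish at 10 weeks edgeR called no member and no gene (0% of 18273), with 1 member and 630 genes at an unadjusted p under 0.05, and DESeq2 called no member. At 20 weeks it again called none (0% of 18331), with 1 member and 674 genes at an unadjusted p under 0.05, and DESeq2 called no member. For the change between 10 and 20 weeks, long-lived minus short-lived, edgeR called none (0% of 18828), with 2 members and 320 genes at an unadjusted p under 0.05, and limma voom called no member.

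**Figure D4:**
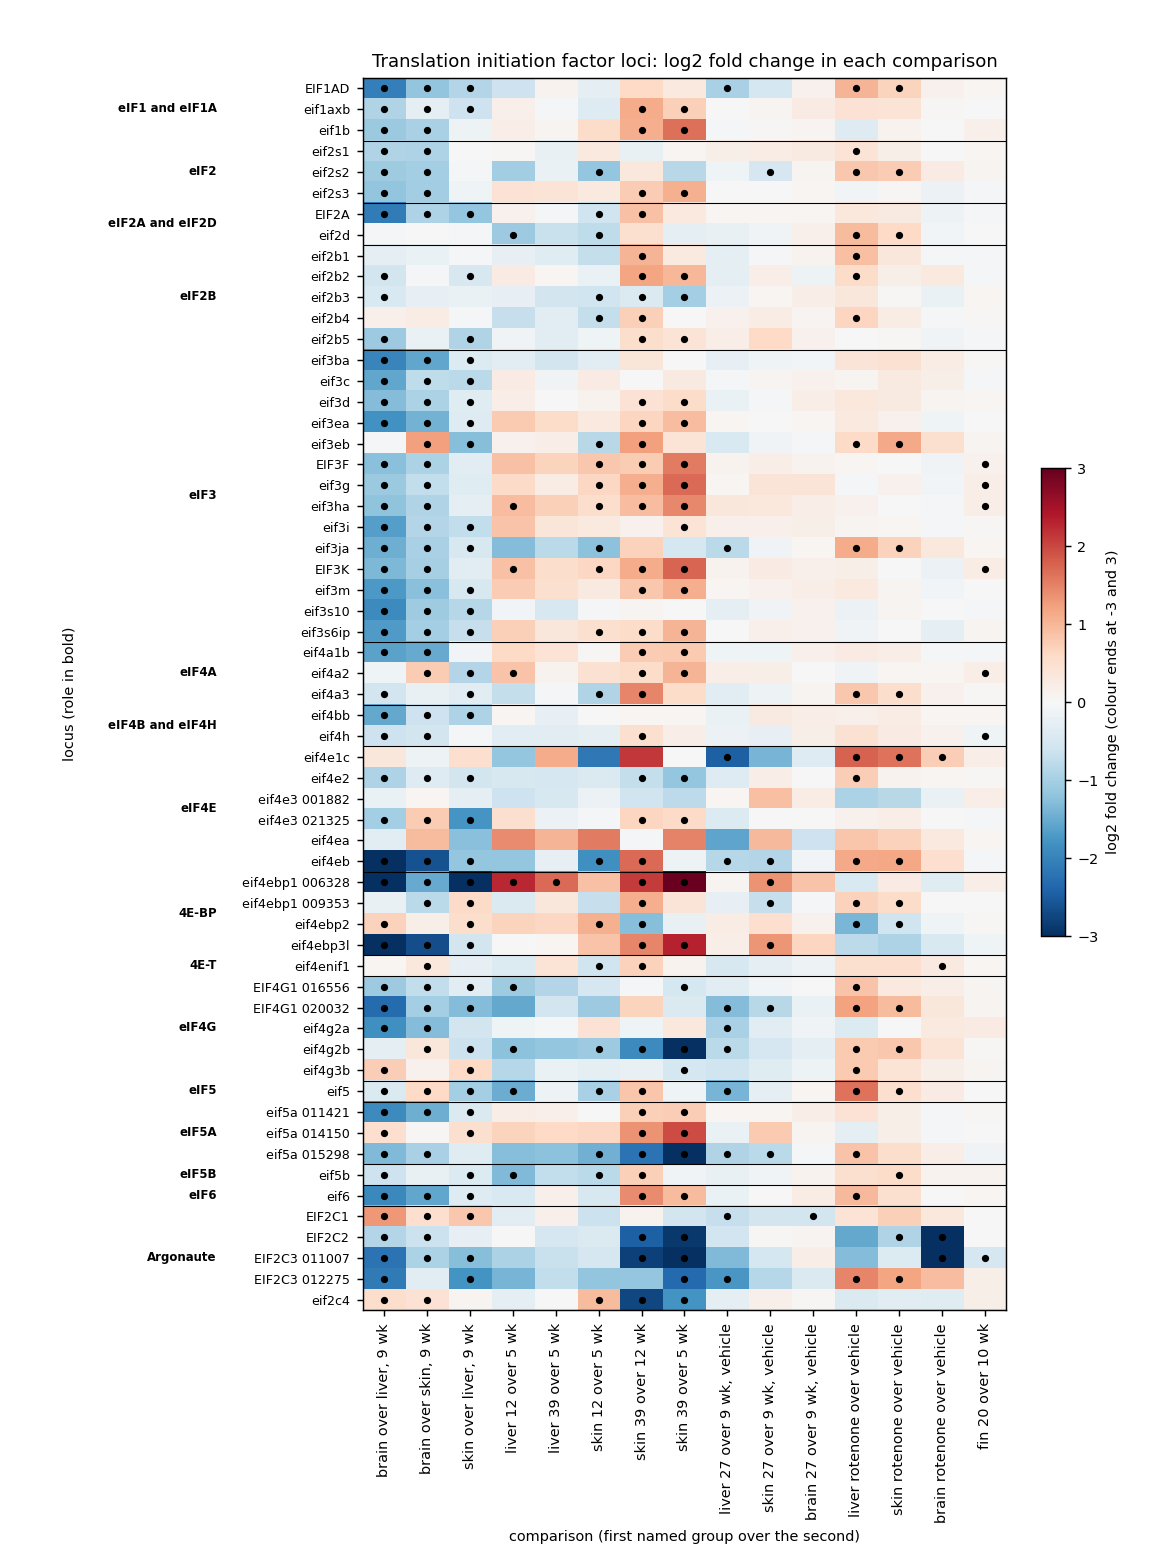
Log2 fold changes of the 59 tested loci, grouped by role down the page, in comparisons of tissues, ages, rotenone with vehicle, and fin ages across it, with called changes marked by a dot. Skin at 39 weeks has 22 higher and 10 lower loci against 5 weeks, rotenone liver has 22 higher and 1 lower, and fin at 20 over 10 weeks has 5 higher and 2 lower.

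Liver and skin taken from the same untreated fish deviated together. For 12 fish with both tissues, each fish's deviation from the mean of its own age group was correlated between liver and skin, over all genes. A positive relation was called for 18 of 59 members and a negative one for none (100000 permutations, Benjamini-Hochberg over all genes), where 15.9% of all genes were called. Without fish JM103 a positive relation was called for 13 members and without fish JM100 for 16, with the shares of all genes not given. The median r was 0.53 over the members and 0.35 over all genes. Both tissues of a fish share the animal and the occasion of sampling.

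eif2s2 had the highest r, 0.94 (Spearman's rho 0.96, permutation p = 1e-05, the smallest the permutations can give, adjusted p = 0.00256), and r was 0.95 without the 2 fish farthest from the median. On the log2 scale in liver and skin the deviations were 1.11 and 0.98 for fish JM83, 0.64 and 1.25 for JM79, 0.61 and 0.99 for JM1, −1.15 and −0.78 for JM18, −0.84 and −0.54 for JM13, and −0.63 and −0.64 for JM103. The fish were spread along the range in both directions, with no separate clusters, and JM79 and JM83 are the fish whose eif4eb stood out in skin.

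For eif5 r was 0.91 (rho 0.89, permutation p = 7e-05, adjusted p = 0.00399), 0.85 without those 2 fish. Its deviations were 1.4 and 0.79 for JM83, 1.26 and 0.91 for JM79, 0.69 and 0.82 for JM1, and −1.09 and −0.27 for JM18. eif4e1c had the widest spread, from 2.31 and 3.28 for JM1 to −2.41 and −1.96 for JM18 (r 0.92, rho 0.90, permutation p = 6e-05, adjusted p = 0.00378, and 0.86 without the 2 farthest fish). EIF4G1 Nfu_g_1_020032 (r 0.91), eif3ja (0.91), eif4g2b (0.90), eif4g3b (0.90), eif4ea (0.88), eif4eb (0.88) and EIF2C3 Nfu_g_1_012275 (0.88) followed. For eif1b r was 0.76 but 0.38 without the 2 farthest fish, so that it rests on them.

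**Figure D5:**
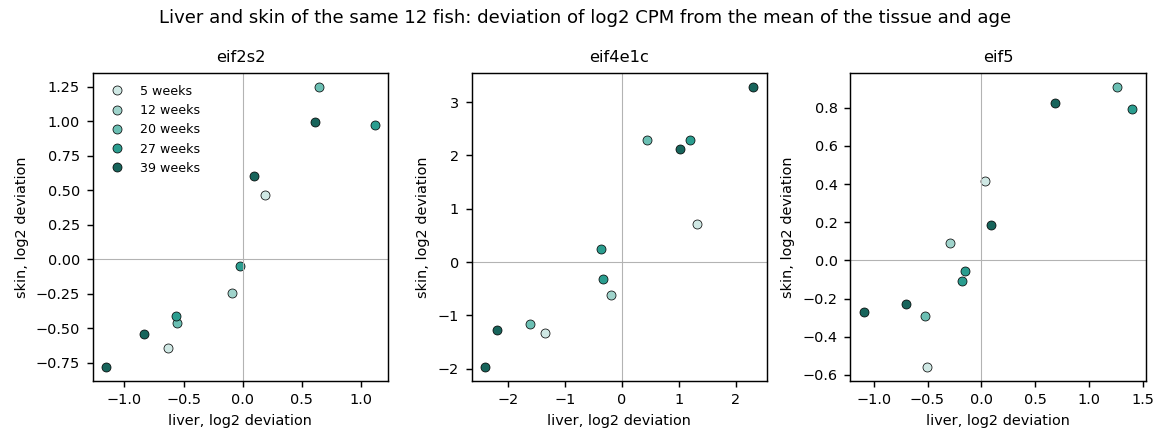
Deviation of each of 12 untreated fish from the mean of its age group in liver (horizontal axis, log2) and in skin (vertical axis, log2), with 1 point per fish, shaded by age. eif2s2 (r 0.94), eif5 (r 0.91) and eif4e1c (r 0.92) run along the diagonal, with JM79, JM83 and JM1 high and JM13 and JM18 low.

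Among the 15 vehicle and rotenone fish the same relation between liver and skin was called for 1 member, eif4g3b (r 0.81), where 1.24% of all genes were called. The median r was 0.30 over the members and 0.18 over all genes. Between brain and liver the permutation test called no member and no gene (0% of 16192), with 2 members and 1482 genes at an unadjusted p under 0.05. Between brain and skin it called no member, where 0.182% of all genes were called, with 2 members and 1566 genes at an unadjusted p under 0.05. No other tool was run on these relations.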

How the data were processed

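Sequencing covered 185 killifish libraries, made from total RNA. Per the labels' protocols, RNA was extracted with QIAzol and libraries were made with a TruSeq RNA kit, which does not mark strand, from 2.5 µg (tissues) or 1 µg (fins) of RNA. The deposited count table held whole reads per locus, and the deposited RPKM table held the authors' values from the same reads. CASAVA 1.8.0 and 1.8.2, bcl2fastq 1.8.4, TopHat2 2.0.6 and featureCounts 1.4.3-p1 are named in the submitters' processing notes. The genome build is not given in the sources used here, so no coordinates are printed. No 2 libraries of the same group agreed within counting noise, and pairs from different groups were not compared.

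Locus lengths were taken from the ratio of the deposited counts and RPKM values. The tests ran on the deposited counts with edgeR 4.0.16 (R 4.3.3): TMM scaling, filterByExpr by group, robust glmQLFit and glmQLFTest, and Benjamini-Hochberg adjustment over all genes tested, with calls at an adjusted p under 0.05. Each tissue's age groups, and each tissue's 3 treated groups, shared 1 fit. Fin comparisons had fish as a block or batch as a term, and tissue comparisons had fish as a block, since tissues or clips came from the same animal. The median correlation of same-fish deviations was 0.132, 0.248 and 0.157 in fins of short-lived, middle and long-lived fish. At 9 weeks it was −0.018 for brain and liver, 0.049 for brain and skin and 0.201 for skin and liver. All tests were two-sided. Alternatives used DESeq2 1.42.0, limma 3.58.1, other scalings, no filter, offsets for length or for the deviation of fish MC10, and leaving out each fish of the groups compared. Single fish were not left out in the fin comparisons. The scripts were tested on simulated data. Relations within fish used 100000 permutations of Pearson's r on log2 CPM with a prior count of 2.

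The members and gene lists were chosen with earlier results of these data known. For each comparison the text names up to 6 called loci with the largest rise and up to 6 with the largest fall, the eIF4E, 4E-BP and eIF2 loci, eIF3 as a group, and paralogs called in opposite directions. Where more are named, they were chosen after their values were seen, as were the rotenone comparison between tissues and the relations within fish. P-values of tests between groups of different fish rest on the spread between the fish of a group. In tests with fish as a block they rest on the spread left within fish. For the relations within fish they come from the permutations.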

Additional observations from a re-analysis of the deposited data

Results flagged for a closer look

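2 kinds of result were marked for a closer look: single fish far from their group, and rotenone changes that differed between tissues. Within groups of 5 fish, a chosen part of the loci and groups was searched for a fish far from the others. The gap to the nearest other had to be above 0.71 of the range. Of the 82 groups searched 8 had one, where about 1 in 20 comes by chance. Groups outside that part were not searched, and some printed above meet the rule. One is eif5b in livers of 12 weeks (fish JM115 at 14.1 RPKM, the others at 5.24 to 7.18). 5 of the 8 came from 3 fish already described, MC10, MR30 and MC7. In vehicle brains MC10 had 0.196 RPKM of EIF2C2 (the other 4 at 3.33 to 4.13) and 114 RPKM of eif5 (70.9 to 77.2). In the rotenone skin of fish MR30, which held testis markers, eif3eb stood at 13.5 RPKM (5.30 to 6.29) and eif4ebp2 at 18.7 RPKM (26.1 to 28.5), and in the vehicle skin MC7, which held them too, eif3eb stood at 6.03 RPKM (2.15 to 3.15). The remaining ones were EIF2C2 in the rotenone brain MR28 (0.542 RPKM, the others 0.183 to 0.262), eif4e1c in the rotenone brain MR26 (38.0 RPKM, the others 43.7 to 45.7) and eif4ebp1 Nfu_g_1_006328 in the 39-week skin JM15 (146 RPKM, the others 52.2 to 66.0). The part of the testis markers in the skin values was not tested.

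Rotenone changes differed between liver and brain by 1.37 for eif5, −1.29 for eif4ebp2, 1.02 for eif2d, 0.91 for EIF1AD, 0.87 for EIF4G1 Nfu_g_1_020032 and 0.67 for EIF4G1 Nfu_g_1_016556 on the log2 scale, and between liver and skin by 1.18 for eif5, each with an edgeR adjusted p under 0.05.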

How the results depend on the processing

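For liver at 39 against 5 weeks the count of 1 became 5 with DESeq2, 3 with only the 2 groups fitted, 2 with an offset for gene length, 2 with the trend of fish MC10 removed and 0 without the livers of fish JM103 and JM100. For liver at 12 against 5 weeks the count of 9 became 5 with no filter on low counts, 17 with DESeq2, 16 (3 higher, 13 lower) with only the 2 groups and 2 without JM103 and JM100. For liver at 39 against 12 weeks DESeq2 called 2. Skin at 12 against 5 weeks went from 21 to 36 with only the 2 groups, and skin at 39 against 12 weeks from 40 to 11 with the MC10 trend removed. Brain at 27 against 9 weeks (1) had 3 with DESeq2 and 0 with only the 2 groups, brain rotenone (4) had 8 with DESeq2 and 8 (6 higher, 2 lower) with the length offset, skin at 27 against 9 weeks (7) had 14 with DESeq2, and skin rotenone (16) had 10 with only the 2 groups. The relation of liver and skin in treated fish (1) had 0 without TMM. Apart from these, no count among the alternatives that keep all fish moved by over 1.5 times. Removing the MC10 trend gave 14 higher and 13 lower for skin at 12 against 5 weeks, 17 and 3 for liver rotenone and 11 and 0 for skin rotenone, and the length offset gave 2 and 5 for liver at 12 against 5 weeks. A direction turned in 4 cases: with the MC10 trend removed, eif2c4 (0.05, skin 39 against 5 weeks), EIF2C3 Nfu_g_1_011007 (0.05) and EIF2C2 (0.01, skin 39 against 12 weeks), and in batch 2 alone eif4a1b (0.01, long-lived against short-lived fins at 10 weeks). The shares of all genes called under these alternatives are not given, and the causes were not tested.

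Leaving out 1 fish at a time gave 0 to 4 called members for liver 39 against 5 weeks, 2 to 14 for liver 12 against 5, 0 to 0 for liver 39 against 12, 29 to 33 for skin 39 against 5, 10 to 23 for skin 12 against 5, 36 to 42 for skin 39 against 12, 0 to 9 for brain 27 against 9, 3 to 16 for liver 27 against 9, 2 to 10 for skin 27 against 9, 3 to 21 for brain rotenone, 19 to 27 for liver rotenone, 8 to 19 for skin rotenone, 46 to 51 for brain against liver, 37 to 45 for brain against skin and 24 to 41 for skin against liver. It gave 2 to 7 for the rotenone difference of liver minus brain, 0 to 1 for skin minus brain, 0 to 1 for liver minus skin, 12 to 18 and 0 to 2 for the relations of liver and skin in untreated and treated fish, and 0 to 0 for those with brain. The fish behind moves of over 1.5 times were JM100, JM101 and JM18 (0), JM103 and JM97 (2) and JM12 (4) for liver 39 against 5. For liver 12 against 5 they were JM101, JM104 and JM106 (2), JM100 and JM98 (3), JM107 (4), JM105 (5) and JM115 (14), and for skin 12 against 5 JM100 and JM102 (10). For brain 27 against 9 they were MC5 (0), MC6 (2) and MC10 (9), for liver 27 against 9 MC8 (3), MC3, MC4 and MC7 (5) and MC2 and MC5 (6), and for skin 27 against 9 MC2 to MC5 and MC9 (2), MC8 (3) and MC6 (4). Under rotenone they were MC10 (21) in brain and MC9 (8), MC6 and MR29 (9) in skin, and MC3 (24) for skin against liver. For liver minus brain they were MR27 (2) and MC6, MC8, MR28, MR29 and MR30 (3), for skin minus brain MC10 (1), for liver minus skin MC6, MC8 and MR27 to MR30 (0), and for the relations in treated fish MC6, MR26 and MR29 (0) and MR30 (2).

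Without fish as a replicate block, 6 members were called in fins at 20 against 10 weeks, all among the 7 called with it, 0 in the fin change of long-lived minus short-lived fish, 48 in brain against liver, 42 in brain against skin and 37 in skin against liver, so that the block moved no count by over 1.5 times.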
